A study of Homo sapiens with 16 samples.

Results

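The transcriptional output of YAP and TAZ was followed through 29 of their target genes in RNA-seq of SW480 cells in which the expression of Ajuba had been modified. The 29 genes are widely used targets, taken by symbol, and all 29 were found among the 66023 genes of the count table. SW480 is a human cell line established from a colon adenocarcinoma, and it and 5 lines derived from it gave 16 samples. Parental is the unmodified line (n = 2). shScrambled carries a non-targeting shRNA (n = 2), shAjuba1 an shRNA against the coding region of Ajuba (n = 3) and shAjuba2 one against a non-coding region (n = 3). Ajuba OE carries an overexpression construct with a CMV promoter and a FLAG-HA tag (n = 3), and Control the same construct after removal of the Ajuba sequence (n = 3). The 5 modified lines were made with lentivirus and kept as stable lines under puromycin, cells were used at passage 10 to 18, and the shRNAs and the construct were carried as single lines, so that a line and its treatment cannot be told apart. Replicates of a line are described by the study as technical, so that p-values measure only the spread between these samples.

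YAP (gene YAP1) and its paralog TAZ (gene WWTR1) are transcriptional coactivators that do not bind DNA on their own and act through the TEAD factors. The kinases of the Hippo pathway phosphorylate them and hold them in the cytoplasm, and LIM proteins of the Ajuba family are known to bind the kinases LATS1 and LATS2 and restrain them. In intestinal epithelium YAP and TAZ are known for their part in regeneration and tumor growth, and CCN1 and CCN2 (formerly CYR61 and CTGF), which encode secreted matricellular proteins, are the targets most often used as their readout.

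TEAD factors bind the letters GGAATG, and the promoters that hold them more than once are shown to let the classical targets be seen beside their values. Promoter windows of RefSeq (GRCh38.p14) ran from 250 bases before to 50 bases after a gene's start. Windows were found for 22 of the 29 targets, with none for CCN1, CRIM1, ARHGEF17, ASAP1, DOCK5, STMN2 and DLC1. Of the 29 windows of these 22 genes, 9 (31.0%) held GGAATG or, for the other strand, CATTCC, compared with 4928 of 35116 windows (14.0%) over all genes. A match describes letters only and was not tested for binding. CCN2 held 3 copies, at 169, 104 and 95 bases before its start. ANKRD1 held 2, at 220 and 128 bases before the start, and NUAK2 held 1 on each strand, at 197 and 18 bases. PTPN14, TGFB2, FOXF2, EDN1, THBS1 and AXL held 1 each. The 250 bases before the start of CCN2 (chr6:131951373-131951622, minus strand), ANKRD1 (chr10:90921088-90921337, minus strand) and NUAK2 (chr1:205321746-205321995, minus strand) are given 5′ to 3′, with the motif on either strand in capitals.
CCN2: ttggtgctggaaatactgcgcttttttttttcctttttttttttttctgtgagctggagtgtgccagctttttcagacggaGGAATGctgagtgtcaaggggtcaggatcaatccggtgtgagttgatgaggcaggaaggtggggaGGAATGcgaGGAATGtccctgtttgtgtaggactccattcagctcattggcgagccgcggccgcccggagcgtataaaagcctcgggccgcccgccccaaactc
ANKRD1: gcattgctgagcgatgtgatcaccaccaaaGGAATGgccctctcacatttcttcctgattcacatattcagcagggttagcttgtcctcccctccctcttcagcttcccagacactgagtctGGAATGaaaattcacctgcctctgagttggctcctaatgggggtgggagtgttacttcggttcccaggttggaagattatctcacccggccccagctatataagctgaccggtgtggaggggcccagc
NUAK2: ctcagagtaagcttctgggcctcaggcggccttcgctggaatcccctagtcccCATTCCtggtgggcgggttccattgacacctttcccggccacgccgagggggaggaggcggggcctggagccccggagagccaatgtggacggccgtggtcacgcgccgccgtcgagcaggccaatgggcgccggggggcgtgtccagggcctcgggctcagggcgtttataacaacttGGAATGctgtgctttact

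The authors deposited counts of read pairs per gene without normalization, and each sample held between 30132396 and 69684675 of them. Levels are given as RPM, the counts of a gene per 1000000 counts of that sample. Ranges of RPM were not compared over all genes, so the share of genes with separate ranges is not known. Targets that were not called could have separate ranges too. For each comparison the quasi-likelihood test of edgeR was run on the counts of the lines in question. A target is said to be called, or to rise or fall, where its p-value after Benjamini-Hochberg adjustment over all genes tested was under 0.05. Fold changes are those of this model, on the log2 scale where so named, with their standard error (SE).

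AJUBA was measured first, as the check of the lines. Its level was 88.8 and 91.6 RPM in Parental, 83.4 and 81.6 in shScrambled, 49.6, 47.3 and 53.5 in shAjuba1, 60.3, 68.6 and 57.1 in shAjuba2, 89.6, 100.5 and 89.4 in Control and 549.7, 462 and 566 in Ajuba OE. Both knockdown lines lay below both shScrambled samples and Ajuba OE above Control. Against its control, shAjuba1 had a log2 fold change of -0.73 (SE 0.0834, adjusted p = 2.19e-05) and shAjuba2 one of -0.46 (SE 0.131, adjusted p = 0.0773). Ajuba OE, whose reads include those of the construct, had 2.56 (SE 0.115, adjusted p = 7.69e-05). The fall in shAjuba2 therefore did not pass the threshold.

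Epithelial markers were abundant in every sample, with a summed level of the 10 markers between 3000 and 7326 RPM. Summed levels were 10.9 to 41.9 RPM for 10 fibroblast markers, 2.46 to 5.66 for 6 endothelial and 3.29 to 7.82 for 6 leukocyte markers, and the fibroblast markers COL3A1, DCN, PDGFRA and POSTN were too low to be tested in any comparison.

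The targets covered a wide range of levels. Per length of exon sequence and averaged over the 6 lines, ANKRD1, a nuclear ankyrin repeat protein, was the highest at 157 RPKM. It was followed by CRIM1 (33.2 RPKM), a transmembrane protein that binds BMPs, and the receptor tyrosine kinase AXL (31.3 RPKM). CCN1 stood at 24.7 RPKM and CCN2 at 8.22 RPKM. At the other end were STMN2, RBMS3, FSTL1 and SLIT2, between 0.0171 and 0.0698 RPKM. STMN2, a stathmin of neurons, had 0 to 3 counts per sample and passed the filter on low counts in no comparison. The RNA-binding gene RBMS3 had 0 to 81 counts, the secreted guidance cue SLIT2 4 to 69 and FSTL1, a secreted follistatin-like protein, 4 to 45. Where RBMS3 or SLIT2 had few counts in a line, the filter was passed through the other line of the comparison. The gene BTNL12P on the opposite strand of FSTL1 had 89.5% of its counts.

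Ajuba OE had the lowest mean level of the 6 lines for 18 of the 29 targets and the highest for 1, IGFBP3. shAjuba2 had the highest for 14, shAjuba1 for 6 and shScrambled for 5. The share of all genes with their lowest or highest mean in each line was not counted. The 29 include STMN2, which had almost no counts. Summed over the 29 targets, the level was 1185 to 1386 RPM in Ajuba OE, 1896 to 2072 in Control, 1998 to 2034 in Parental, 2284 to 2327 in shScrambled, 2260 to 2335 in shAjuba2 and 2000 to 2038 in shAjuba1. The Ajuba OE samples lay below those of every other line, whereas shAjuba1 overlapped Parental and Control.

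**Figure D1:**
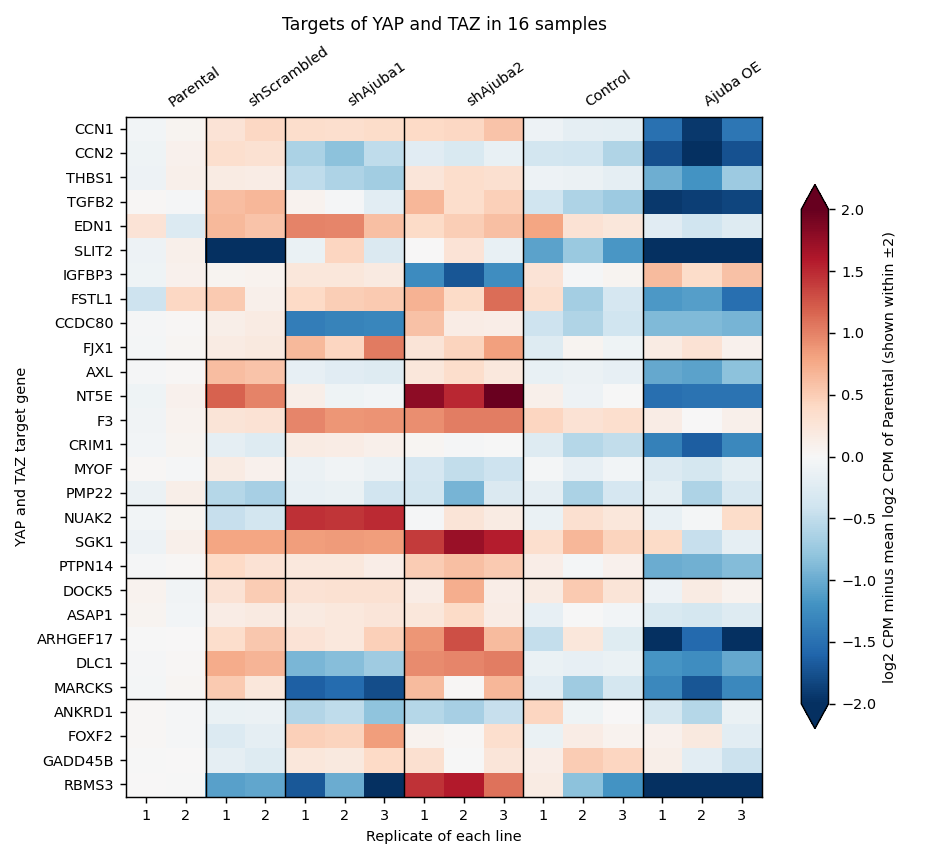
Each row is one of the 28 targets that passed the filter in at least 1 comparison and each column 1 of the 16 samples, and color gives log2 CPM (edgeR, prior count 2) minus the mean of Parental, shown within ±2. Rows are ordered by role: secreted proteins, cell surface, kinases and phosphatase, cytoskeleton and GTPases, nuclear and RNA-binding. The Ajuba OE columns are blue in most rows, and the columns of shAjuba1 differ in sign from row to row.

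Overexpression of Ajuba went with lower levels of the YAP and TAZ targets. Of the 28 targets tested, 13 were called lower in Ajuba OE than in Control and 0 higher. Over all 21140 genes tested, 3.03% were called lower and 2.39% higher. The 13 include SLIT2 and RBMS3, which had few counts in Ajuba OE and passed the filter through Control. The median log2 fold change was -0.81 over the targets and -0.01 over all genes, and 26 of the 28 were negative (24 with the size factors of DESeq2). Scaling by library size alone moved the calls over all genes from 506 higher and 641 lower to 360 and 748, and those of the targets to 15 lower. In bulk RNA, fewer cells that express a gene and less of its RNA per cell cannot be told apart.

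Both classical readouts fell among the secreted proteins. The level of CCN1 (chr1:85580761-85584589, GENCODE hg38) was 82.3, 78.8 and 78.0 RPM in Control and 30.0, 21.6 and 30.8 in Ajuba OE. That of CCN2 was 18.6, 18.5 and 15.98 RPM in Control and 6.85, 5.17 and 6.86 in Ajuba OE. No sample of one line reached the range of the other. CCN1 was 2.78-fold lower (log2 fold change -1.47, SE 0.136, adjusted p = 0.00115) and CCN2 2.69-fold lower (log2 fold change -1.43, SE 0.136, adjusted p = 0.00129). The ligand TGFB2 was at 7.92, 6.85 and 6.35 RPM in Control and 2.60, 2.63 and 2.77 in Ajuba OE, 2.53-fold lower (log2 fold change -1.34, SE 0.138, adjusted p = 0.00182). Its exons share 701 bp with the antisense gene TGFB2-AS1, which had 36.0% of its counts, and the strand setting of the counting is not given in the sources used here. SLIT2 was low in both lines, with 19, 35 and 23 counts in Control and 6, 5 and 4 in Ajuba OE (log2 fold change -2.56, SE 0.307, adjusted p = 0.00348). THBS1, the matricellular protein thrombospondin 1, was at 51.9, 52.0 and 49.5 RPM in Control and 27.2, 22.9 and 32.2 in Ajuba OE and also fell (log2 fold change -0.84).

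On the cell surface, NT5E (CD73), which makes adenosine from AMP outside the cell, had the smallest p-value of the targets. Its level was 28.0, 24.4 and 26.1 RPM in Control and 8.75, 8.75 and 8.90 in Ajuba OE, and the replicates of each line lay close together. The fall was 2.84-fold (log2 fold change -1.51, SE 0.103, adjusted p = 3.28e-04). AXL was at 144, 149 and 144 RPM in Control and 75.2, 71.9 and 86.2 in Ajuba OE (log2 fold change -0.84, SE 0.101, adjusted p = 0.00345). CRIM1 was at 236, 193 and 204 RPM in Control and 107, 85.5 and 111 in Ajuba OE (log2 fold change -0.9997, SE 0.129, adjusted p = 0.00473). None of these overlapped between the lines, and both AXL and CRIM1 are among the targets with the highest level per length. Tissue factor (F3), the ferlin MYOF and the myelin protein PMP22 did not pass the test, with log2 fold changes of -0.28, -0.21 and -0.01. The ranges of F3 and MYOF did not overlap between the lines either.

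Among the phosphatase and the genes of the cytoskeleton and GTPases, PTPN14, DLC1, ARHGEF17 and MARCKS were called lower. PTPN14, a phosphatase that binds YAP and restrains it, was at 245, 218 and 241 RPM in Control and 107, 108 and 117 in Ajuba OE (log2 fold change -1.02, SE 0.0994, adjusted p = 0.00139). DLC1 was at 23.0, 22.9 and 23.4 RPM in Control and 10.7, 9.98 and 11.8 in Ajuba OE (log2 fold change -1.03, SE 0.102, adjusted p = 0.00151). ARHGEF17 was at 27.8, 45.8 and 32.9 RPM in Control and 8.77, 12.4 and 7.95 in Ajuba OE, 3.49-fold lower (log2 fold change -1.80, SE 0.238, adjusted p = 0.00528). All 3 were lower in each Ajuba OE sample than in any Control sample. MARCKS, a membrane protein that binds actin, fell by 1.03 on the log2 scale. DOCK5 with -0.29 (SE 0.130, adjusted p = 0.292) and ASAP1 with -0.24 (SE 0.0912, adjusted p = 0.205) were not called. RBMS3 was also called lower (adjusted p = 0.0412) but rested on 22, 15 and 10 counts in Control and 0, 3 and 1 in Ajuba OE, too few for a fold change to be given.

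Other targets did not pass the threshold. ANKRD1, the highest of them per length, was at 443, 314 and 335 RPM in Control and 249, 208 and 285 in Ajuba OE (log2 fold change -0.50, SE 0.170, adjusted p = 0.163). Its Control samples were spread more widely than those of CCN1 or CCN2, with replicate 1 the highest. The vasoconstrictor peptide EDN1 had -0.78 (adjusted p = 0.0612) and CCDC80, a secreted matrix protein, -0.44 (adjusted p = 0.0786). The largest positive value belonged to IGFBP3, which binds insulin-like growth factors, with 0.40 (SE 0.116, adjusted p = 0.103). The kinase NUAK2, the forkhead factor FOXF2 and PMP22 had log2 fold changes of -0.10, -0.02 and -0.01.

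The fall in Ajuba OE was also seen with the unmodified line as control. This fit shares the Ajuba OE samples with the fit against Control, so they are not independent tests of this line. Against Parental, 14 of the 28 targets tested were called lower and 0 higher, where 4.84% of all 21521 genes tested were called lower and 2.30% higher. The 14 included all 13 called against Control, among them SLIT2 and RBMS3 with few counts in Ajuba OE, and CCDC80 (-0.91) in addition. CCN1 then had a log2 fold change of -1.62 (SE 0.158, adjusted p = 0.00115), CCN2 -1.88 (SE 0.153, adjusted p = 5.00e-04) and NT5E -1.51 (SE 0.111, adjusted p = 3.43e-04). Against Control, leaving out any 1 sample of either line left between 10 and 13 targets called. The summed level of the epithelial markers was 5979 to 7326 RPM in Ajuba OE and 5018 to 6163 in Control, with overlapping ranges. Against Control, 4 of the 10 (CDH1, CDX2, CLDN7 and VIL1) were called higher, 0 were called lower and the others were not called. Of all genes tested against Control, 2.39% were called higher and 3.03% lower. The fibroblast markers summed to 10.9 to 14.3 RPM in Ajuba OE and 19.1 to 27.6 in Control, with 6 of the 10 under 0.1 RPM and 4 at 0 in Ajuba OE. PDGFRB, a growth factor receptor, was the 1 of the 3 tested that was called (log2 fold change -3.25, SE 0.198, adjusted p = 2.03e-04). The part of either in the fall of the targets was not tested.

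**Figure D2:**
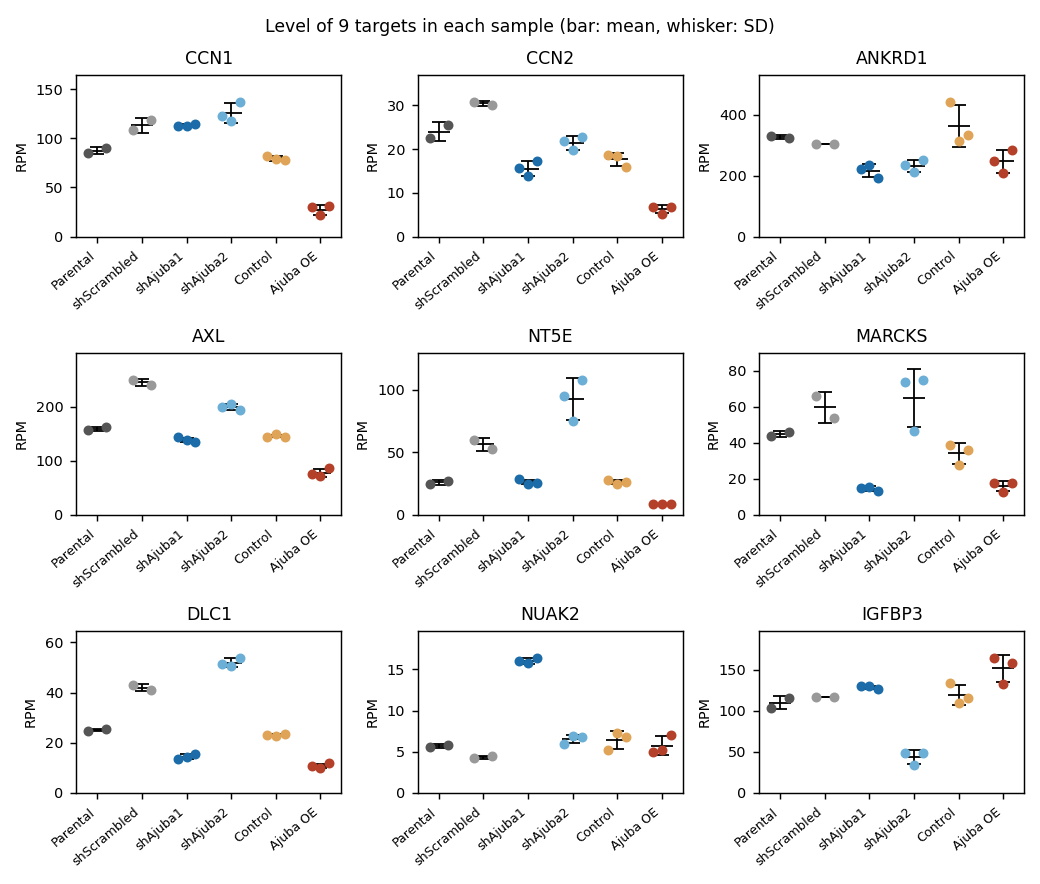
Points are the level in RPM (axes from 0) of 9 targets in every sample of the 6 lines, the bar is the mean of a line and the whisker its SD (n = 2 or 3). CCN1, CCN2, AXL and NT5E are lowest in Ajuba OE, MARCKS and DLC1 are low in both shAjuba1 and Ajuba OE, NUAK2 is high in shAjuba1 and IGFBP3 low in shAjuba2.

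Knockdown with shAjuba1 moved the targets in both directions. Of the 27 tested, 8 were called higher and 10 lower than in shScrambled, where 18.2% of all 21082 genes tested were called higher and 20.2% lower. The median log2 fold change was -0.02 over the targets and -0.01 over all genes. CCN2 fell, CCN1 did not pass the test, and the largest changes were in MARCKS, NUAK2, DLC1, CCDC80 and SLIT2. Epithelial markers summed to 5130 to 5344 RPM in shAjuba1 and 4211 to 4338 in shScrambled, with 4 of 10 called higher and 3 lower, and their part was not tested.

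Among the secreted proteins, CCN2 was at 30.9 and 30.0 RPM in shScrambled and 15.7, 13.7 and 17.2 in shAjuba1, 1.98-fold lower (log2 fold change -0.98, SE 0.104, adjusted p = 1.20e-05). CCN1 stood at 108 and 119 RPM in shScrambled and 113, 112 and 115 in shAjuba1, with overlapping ranges and a log2 fold change of -0.02 (SE 0.0782, adjusted p = 0.894). Of the classical readouts CCN2 thus passed the test in this line and CCN1 did not, and the difference between the genes was not tested. THBS1 was at 63.1 and 62.4 RPM in shScrambled and 39.5, 36.4 and 34.8 in shAjuba1 (log2 fold change -0.78, SE 0.0893, adjusted p = 2.36e-05). CCDC80 was at 12.3 and 12.7 RPM in shScrambled and 4.31, 4.48 and 4.61 in shAjuba1, 2.83-fold lower (log2 fold change -1.50, SE 0.110, adjusted p = 5.82e-07). The shAjuba1 samples of THBS1 and CCDC80 all lay below shScrambled. SLIT2 rose from 5 and 11 counts in shScrambled to 53, 50 and 36 in shAjuba1 (log2 fold change 2.71, SE 0.364, adjusted p = 8.73e-05), a value that rests on the low counts in shScrambled. TGFB2 was called lower (-0.71), and FJX1, the human homolog of a Drosophila planar polarity gene, higher (0.53).

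On the cell surface NT5E was at 60.1 and 52.6 RPM in shScrambled and 28.4, 24.7 and 25.5 in shAjuba1 (log2 fold change -1.12, SE 0.0989, adjusted p = 2.64e-06). AXL was at 249.6 and 240.1 RPM in shScrambled and 143, 137 and 135 in shAjuba1 (log2 fold change -0.84, SE 0.0769, adjusted p = 3.65e-06). In contrast, F3, the receptor that starts blood coagulation, rose from 21.3 and 21.7 RPM in shScrambled to 34.9, 32.6 and 33.2 in shAjuba1 (log2 fold change 0.63, SE 0.0915, adjusted p = 1.66e-04). The ranges of all 3 were separate, as were those of ASAP1 and SGK1, which were not called. Smaller changes passed the test in CRIM1 (0.34), PMP22 (0.39) and MYOF (-0.24).

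The steepest fall of all targets was in MARCKS, from 65.9 and 53.6 RPM in shScrambled to 14.7, 15.7 and 13.4 in shAjuba1, or 4.13-fold (log2 fold change -2.05, SE 0.112, adjusted p = 4.77e-08). DLC1 was at 42.9 and 41.0 RPM in shScrambled and 13.6, 14.1 and 15.6 in shAjuba1, 2.94-fold lower (log2 fold change -1.56, SE 0.0947, adjusted p = 1.18e-07). NUAK2, an AMPK-related kinase, moved the other way from 4.20 and 4.47 RPM in shScrambled to 16.01, 15.7 and 16.4 in shAjuba1, 3.65-fold higher (log2 fold change 1.87, SE 0.112, adjusted p = 1.08e-07). The shAjuba1 samples were the highest of all 16 for NUAK2, and those of no other line exceeded 7.28 RPM. ANKRD1, whose promoter like that of NUAK2 holds the TEAD letters at 2 places, was called lower (-0.52). FOXF2 (0.80) and the stress-induced GADD45B (0.48) were called higher. The targets PTPN14, IGFBP3, EDN1, ARHGEF17, DOCK5, FSTL1, ASAP1 and SGK1 did not pass the test, with log2 fold changes between -0.18 and 0.25. DOCK5 is a Rac exchange factor, ASAP1 an Arf GTPase activating protein and SGK1 a serine/threonine kinase.

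The control line shScrambled itself differed from Parental in many targets. In shScrambled, 13 targets were called higher and 4 lower than in Parental, where 15.0% of all 21289 genes tested were called higher and 15.6% lower. The median log2 fold change of the 28 targets tested was 0.22 and that of all genes 0.03. NT5E was at 24.5 and 27.3 RPM in Parental against 60.1 and 52.6 in shScrambled (log2 fold change 1.11, SE 0.0877, adjusted p = 9.68e-10). DLC1 (0.73), AXL (0.62), TGFB2 (0.66), CCN1 (0.37) and CCN2 (0.33) also rose, and SLIT2, with 45 and 69 counts in Parental, fell by 2.71 on the log2 scale. The count of 17 targets became 7 in a fit of all 16 samples, where the calls over all genes went from 6526 to 1696. Both counts also fell without any 1 sample, which left its line with 1 sample. Epithelial markers summed to 4211 to 4338 RPM in shScrambled and 6282 to 6813 in Parental, with 7 of 10 called lower and 1 higher, and their part in the result was not tested.

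Against Parental, 11 of the 28 targets tested were called higher in shAjuba1 and 8 lower, where 17.6% of all 21150 genes tested were called higher and 20.5% lower. Of the changes against shScrambled, 7 of the 10 falls and 5 of the 8 rises were called again. MARCKS (-1.65), CCDC80 (-1.35), DLC1 (-0.83), CCN2 (-0.66), ANKRD1 (-0.63), THBS1 (-0.61) and AXL (-0.23) had lower levels on this scale too. NT5E and SLIT2 were not called, with log2 fold changes of -0.01 (SE 0.101, adjusted p = 0.929) and -0.01 (SE 0.238, adjusted p = 0.987). TGFB2 (-0.06), MYOF (-0.11), CRIM1 (0.13) and PMP22 (-0.22) were not called either. NUAK2 had 1.46 (SE 0.108, adjusted p = 2.65e-06) and F3 0.91 (SE 0.0955, adjusted p = 3.06e-05). Targets called on this scale and not against shScrambled were CCN1 with 0.34 (SE 0.0751, adjusted p = 0.00403), EDN1 (0.87), SGK1 (0.83), ARHGEF17 (0.32), DOCK5 (0.30) and ASAP1 (0.20), all higher. CCN1 was thus higher in shAjuba1 than in Parental, as it was in shScrambled. RBMS3 was called lower on 23 and 30 counts in Parental and 7, 8 and 1 in shAjuba1. The fits share the shAjuba1 samples and are not independent tests of this line.

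**Figure D3:**
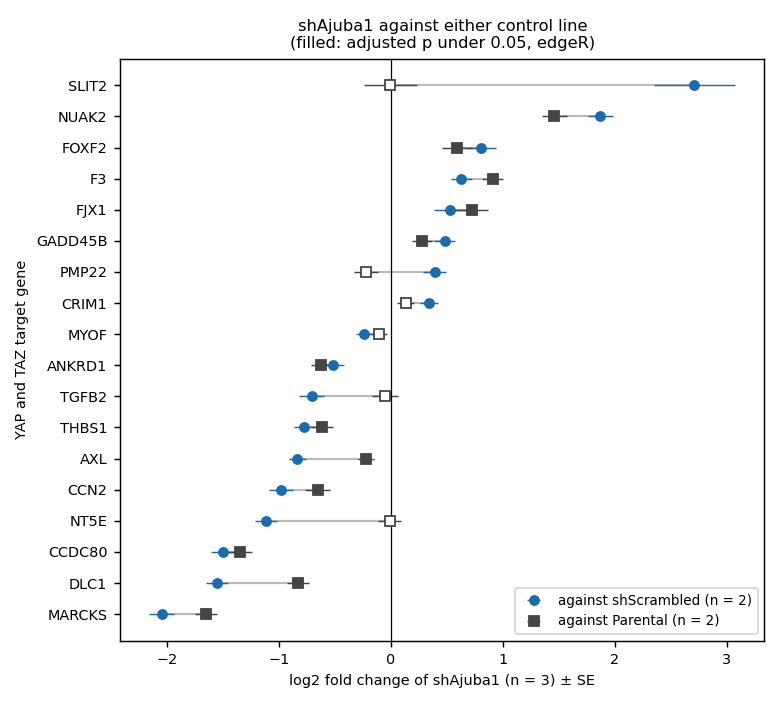
For the 18 targets called in shAjuba1 (n = 3) against shScrambled, the log2 fold change ± SE is plotted against shScrambled (circles, n = 2) and against Parental (squares, n = 2), filled where the adjusted p was under 0.05 in edgeR. The pairs lie close together for CCDC80, THBS1 and ANKRD1, and the squares of NT5E (-0.01) and SLIT2 (-0.01) lie at 0.

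Fewer targets were called after knockdown with shAjuba2. Of the 28 tested, 4 were called higher and 3 lower than in shScrambled, where 3.19% of all 22446 genes tested were called higher and 4.44% lower. The median log2 fold change was 0.18 over the targets and -0.01 over all genes. Scaling by library size alone turned the split into 5 higher and 1 lower. The count of 7 depended on single samples: it was 15 without replicate 2 of shAjuba2 and 3 without its replicate 1. The calls over all genes moved the same way, from 1713 to 4983 and 492. Both counts also fell without either shScrambled sample, which left that line with 1 sample. Epithelial markers summed to 3000 RPM in replicate 2 of shAjuba2 and to 4754 and 5631 in the others, 2 of the 10 were called lower than in shScrambled, and their part was not tested.

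The lower targets were IGFBP3, CCN2 and MYOF. IGFBP3 was at 117 and 116 RPM in shScrambled and 49.0, 34.1 and 48.8 in shAjuba2, 2.75-fold lower (log2 fold change -1.46, SE 0.162, adjusted p = 0.00325). It was at least 104 RPM in every sample of the other 5 lines. CCN2 was at 21.7, 19.7 and 22.7 RPM in shAjuba2 (log2 fold change -0.56, SE 0.119, adjusted p = 0.0329) and MYOF at 154, 132 and 143 RPM, compared with 207 and 196 in shScrambled (log2 fold change -0.54, SE 0.120, adjusted p = 0.0371). Against Parental, 7 of the 28 targets tested were called higher and 2 lower, where 4.26% of all 22111 genes tested were called higher and 3.88% lower. IGFBP3 was again called lower (-1.39) while CCN2 (-0.23) and MYOF (-0.41) were not called. CCN1 was at 122, 118 and 138 RPM in shAjuba2, overlapping shScrambled (log2 fold change 0.10, SE 0.127, adjusted p = 0.641).

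The higher targets were RBMS3, SLIT2, F3 and SGK1. RBMS3 had 9 and 13 counts in shScrambled and 80, 81 and 64 in shAjuba2, and passed the filter through shAjuba2. SLIT2 had 5 and 11 counts in shScrambled and 60, 66 and 55 in shAjuba2 (log2 fold change 2.76, SE 0.334, adjusted p = 0.00437), and passed the filter through shAjuba2. Its log2 fold change against Parental was 0.04. F3 was at 35.4, 36.0 and 37.6 RPM in shAjuba2 (log2 fold change 0.71, SE 0.118, adjusted p = 0.0141). SGK1 was at 6.42 and 6.38 RPM in shScrambled and 10.3, 12.3 and 11.5 in shAjuba2 (log2 fold change 0.78, SE 0.155, adjusted p = 0.0261). F3, SGK1, CCN2 and MYOF were each not called without either shScrambled sample or without replicate 1 of shAjuba2, and MYOF not without its replicate 3 either. RBMS3 was not called without replicate 2 of shScrambled, nor SLIT2 without its replicate 1. NT5E was at 95.2, 74.9 and 108 RPM, above both shScrambled samples, and missed the threshold (log2 fold change 0.67, SE 0.166, adjusted p = 0.0519). It was called higher without replicate 2 of shAjuba2 (adjusted p = 5.51e-05) and against Parental, with a log2 fold change of 1.78 (SE 0.179, adjusted p = 0.00587). DLC1 was also called higher against Parental, with 0.98 (SE 0.114, adjusted p = 0.00786), as were F3, SGK1, RBMS3, PTPN14 (0.55) and ARHGEF17 (0.96), and ANKRD1 was called lower (-0.56).

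**Figure D4:**
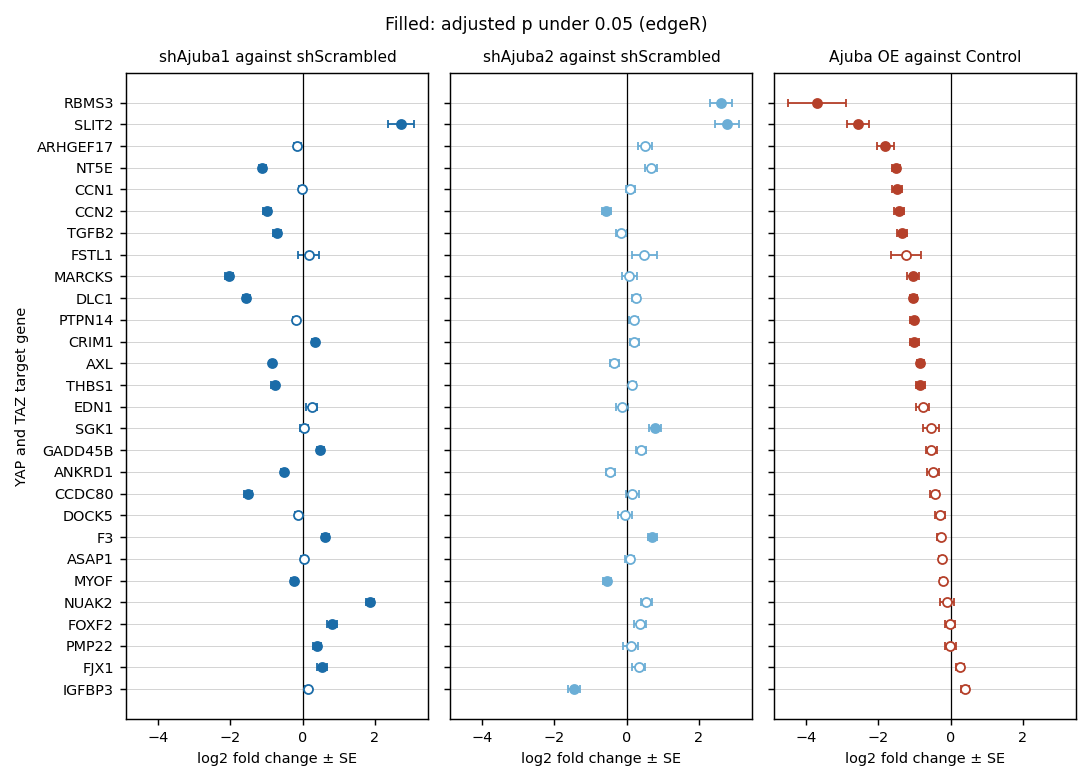
For the 28 targets tested at least once, ordered by Ajuba OE against Control, points give the edgeR log2 fold change ± SE of shAjuba1 (n = 3) and shAjuba2 (n = 3) against shScrambled (n = 2) and of Ajuba OE (n = 3) against Control (n = 3), filled where the adjusted p was under 0.05. RBMS3 was not tested in shAjuba1. Points of Ajuba OE lie left of 0 for 26 of the 28 targets, and those of the knockdown lines lie on both sides.

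A direct comparison of the knockdown lines tested how their targets differed. Of the 28 tested, 2 were called higher and 12 lower in shAjuba1 than in shAjuba2, where 9.47% of all 21600 genes tested were called higher and 10.1% lower. The count of 14 became 9 without any one of the shAjuba1 samples and ranged up to 15. The calls over all genes, 4232 with every sample, ran from 2177 to 5961 in these fits. The log2 fold change was -1.80 (SE 0.110, adjusted p = 1.73e-05) for DLC1, -1.77 (SE 0.144, adjusted p = 7.49e-05) for NT5E and -2.11 (SE 0.181, adjusted p = 9.19e-05) for MARCKS. The samples of shAjuba2 were at 51.3, 50.5 and 53.8 RPM for DLC1 and at 73.8, 46.6 and 75.1 RPM for MARCKS, above every shAjuba1 sample. CCDC80, of the matrix, had -1.65 (SE 0.162, adjusted p = 1.75e-04) and THBS1 -0.91 (SE 0.106, adjusted p = 4.61e-04). RBMS3 had 7, 8 and 1 counts in shAjuba1 and 80, 81 and 64 in shAjuba2, and passed the filter through shAjuba2. The ranges of the lines were separate for all of these, and also for CCN1 and F3, which were not called. SGK1 had -0.73 (SE 0.132, adjusted p = 0.00458) and AXL -0.48 (SE 0.105, adjusted p = 0.0120), and AXL was not called without any one of the shAjuba1 samples. The higher targets were IGFBP3 with 1.60 (SE 0.144, adjusted p = 1.14e-04) and NUAK2 with 1.34 (SE 0.124, adjusted p = 1.38e-04). CCN1 (-0.11), ANKRD1 (-0.05) and F3 (-0.07) did not pass the test. AJUBA itself had a log2 fold change of -0.26 (SE 0.116, adjusted p = 0.141) between these lines.

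Across the 3 comparisons with a control, CCN2 was called lower in each. Its call in shAjuba2 was lost when scaled by library size alone, with Parental as control, and without either shScrambled sample or replicate 1 of shAjuba2. CCN2, AXL, NT5E, TGFB2, THBS1, MARCKS and DLC1 were called lower both in shAjuba1 against shScrambled and in Ajuba OE against Control. AJUBA was lower in shAjuba1 and higher in Ajuba OE. Of all genes tested, 20.2% were called lower in shAjuba1 and 3.03% in Ajuba OE, and the share called lower in both was not counted. CRIM1 and SLIT2 were higher in shAjuba1 and lower in Ajuba OE, and RBMS3 was higher in shAjuba2 and lower in Ajuba OE. SLIT2 and RBMS3 had few counts where they were low, and their calls rest on the lines where they were high. In shAjuba1 against Parental NT5E, TGFB2, CRIM1 and SLIT2 were not called. The comparisons of shAjuba1 and shAjuba2 share the shScrambled samples and are not independent. DOCK5, ASAP1, EDN1 and FSTL1 were called in none of the 3 comparisons.

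The construct control gave a measure of the spread between lines with unmodified Ajuba. Between Control and Parental 0 of 28 targets were called by edgeR in either direction, where 0.0508% of all 21644 genes tested were called higher and 0.319% lower. At an unadjusted p under 0.05 in edgeR 10 targets passed, but the share of all genes at that cut was not counted. DESeq2 called 0 targets. Without replicate 2 of Control 3 were called, all lower, where 333 of all 20838 genes tested were called higher and 652 lower. With every sample 80 genes were called. The median log2 fold change was -0.08 over the targets and 0.04 over all genes. CCN1 had -0.12, CCN2 -0.43, NT5E 0.02 and TGFB2 -0.55 on the log2 scale, none of them past the threshold.

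The genes upstream of the targets were read from a list of 25 Hippo pathway components and TEAD factors, all tested. YAP1 passed the test in none of the 3 comparisons with a control, with log2 fold changes of 0.13 in Ajuba OE, 0.15 in shAjuba1 and 0.02 in shAjuba2. In Ajuba OE 4 of the 25 were called lower and 0 higher, against 3.03% and 2.39% of all genes. AMOTL1, an angiomotin that binds YAP, fell from 28.7, 25.4 and 25.7 RPM in Control to 1.38, 0.896 and 1.84 in Ajuba OE (log2 fold change -4.23, SE 0.228, adjusted p = 1.35e-04). AMOTL2 (-0.83) and LATS2 (-0.44), which are both components of the pathway and targets of YAP, were also lower, as was WTIP (-0.71), a relative of Ajuba. WWTR1 (0.44), TEAD1 (0.13), TEAD2 (-0.01), TEAD3 (-0.17) and TEAD4 (-0.19) did not pass the test.

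In shAjuba1 9 of the 25 were called higher and 8 lower, against 18.2% and 20.2% of all genes. WWTR1 (0.46), TEAD4 (0.73) and TEAD3 (0.28) rose, TEAD1 (-0.93) fell and TEAD2 (0.00) did not pass the test. AMOTL1 (2.10) rose, and MOB1B (-1.36), a coactivator of the LATS kinases, fell. In shAjuba2 AMOTL1 (log2 fold change 2.48, SE 0.133, adjusted p = 4.10e-04) was the 1 gene called higher, and 0 were called lower by edgeR. Of all genes, 3.19% were called higher and 4.44% lower. At an unadjusted p under 0.05 in edgeR 6 of the 25 passed, and the share of all genes at that cut was not counted. AMOTL1 was -1.22 in shScrambled against Parental and -0.94 in Control against Parental, both called, so that its level differed between lines whose Ajuba was not modified.

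Well-known targets outside the 29 were examined through a list of 7 genes. In Ajuba OE, AMOTL2 and LATS2 were called lower and MYC (0.83) higher, where 3.03% of all genes tested were called lower and 2.39% higher. In shAjuba1, 4 rose, AMOTL2 (0.53), LATS2 (0.37), the growth regulator MYC (0.94) and BIRC5 (0.28), which encodes the apoptosis inhibitor survivin. The EGFR ligand AREG (-1.92) and the activin subunit INHBA (-0.81) fell. Of all genes tested in shAjuba1, 18.2% were called higher and 20.2% lower. BIRC5, AREG and INHBA were chosen for naming after their values were seen. In shAjuba2, 0 of the 7 were called by edgeR, where 3.19% of all genes tested were called higher and 4.44% lower. At an unadjusted p under 0.05 in edgeR 1 passed, and the share of all genes at that cut was not counted.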

How the data were processed

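RNA-seq of 16 samples from 6 SW480 lines was analysed. The authors aligned paired reads of stranded mRNA libraries to hg38 with HISAT2, counted read pairs on exons with featureCounts and deposited raw counts per gene. The annotation release, versions and strand setting are not given in the sources used here, and paralogs could share reads. Labels speak of triplicates, but Parental and shScrambled have 2 samples.

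Symbols, positions and exon lengths came from GENCODE release 44 (56434 of 66023 genes matched, with 99.8% of counts). Total counts of 30132396 to 69684675 limit only genes with few counts. The chi-square between replicates of a line exceeded sampling noise (ratios of 1.87 to 14.3 over 14 pairs), so none was counted as a duplicate. Samples were grouped by the line in their labels. Each comparison was fitted to its own samples with edgeR 4.0.16 in R 4.3.3 (filterByExpr, TMM, glmQLFit, glmQLFTest, two-sided, Benjamini-Hochberg over all genes tested, adjusted p under 0.05). The study used DESeq2, which was run as an alternative (version 1.42.0), and the scripts were tested on simulated data. The SE was obtained as |log2 fold change| over the square root of the F statistic.

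The targets and gene lists were chosen with earlier results of these data known. At most 10 called targets per comparison, smallest adjusted p first, are given with full statistics. Same-numbered replicates were not paired, since their correlations after subtraction of the line means ran from -0.17 to 0.62. The value of 0.62 belonged to replicate 2 of Ajuba OE and Control, whose replicates 1 and 3 had 0.163 and -0.0474. Alternatives covered normalization, filter, test, samples in the fit, replicate block, single samples left out and Parental as control. Figures used Python 3.11.15, pandas 2.3.3 and matplotlib 3.10.9.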

Additional observations from a re-analysis of the deposited data

Results flagged for a closer look

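The 14 targets that differed between the knockdown lines stood out because a direct test of one line against the other called them (edgeR, shAjuba1 against shAjuba2, 3 samples each). The log2 fold change was -1.80 for DLC1, -1.77 for NT5E, -2.11 for MARCKS, -1.65 for CCDC80, -0.91 for THBS1, -3.45 for RBMS3, -0.73 for SGK1, -0.48 for AXL, -0.55 for TGFB2, -0.63 for ARHGEF17, -0.41 for CCN2 and -0.35 for PTPN14. The value of RBMS3 rests on 1 to 8 counts in shAjuba1, and the gene passed the filter through shAjuba2. The higher values were 1.60 for IGFBP3 and 1.34 for NUAK2. DLC1, MARCKS, NT5E, CCDC80, THBS1, AXL, TGFB2, CCN2 and PTPN14 lay below both shScrambled samples in every shAjuba1 sample. In shAjuba2, DLC1, NT5E, THBS1 and PTPN14 lay above both of them, AXL and CCN2 lay below, and MARCKS, CCDC80 and TGFB2 overlapped. NUAK2 and SGK1 lay above shScrambled in both knockdown lines, and IGFBP3 above in shAjuba1 and below in shAjuba2. ARHGEF17 and RBMS3 overlapped shScrambled in shAjuba1 and lay above it in shAjuba2. AJUBA differed between the lines by -0.26 (adjusted p = 0.141). No line had 4 or more samples, so the test of single samples against their line was not made. Between pairs of samples of shAjuba2, the median squared difference over genes was 10.8 and 14.3 times counting noise for pairs with replicate 2 and 4.89 for the other pair. Pairs with replicate 2 were also the widest in Ajuba OE (13.55 and 9.25, the other 5.18) and in Control (11.36 and 6.32, the other 4.39).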

How the results depend on the processing

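The count of called targets stayed within 1.5 times its value with DESeq2 size factors and with DESeq2 itself in all 6 comparisons. With the replicate number as a block it was 11 in shAjuba2 and 24 (2 higher, 22 lower) in Ajuba OE. Replicate 3 of shAjuba1, shAjuba2 and Control has no partner in shScrambled or Parental. The numbers are not known to pair samples. With the block AXL, ARHGEF17, CCN2 and PTPN14 lost their call between the knockdown lines (adjusted p = 0.0502, 0.0623, 0.0852 and 0.125), as did F3 (0.0561) and NUAK2 (0.0767) in shScrambled against Parental. In Ajuba OE it added IGFBP3 (0.000648, higher), FJX1 (0.0405, higher), ANKRD1 (0.00423), EDN1 (0.00423), CCDC80 (0.0114), F3 (0.0139), MYOF (0.0216), GADD45B, SGK1, DOCK5 and ASAP1. In shAjuba2 it added NT5E (0.0110), ANKRD1, ARHGEF17 and NUAK2, and in shAjuba1 EDN1 and ARHGEF17. A fit of all 16 samples called 7 targets in shScrambled against Parental and 2 in Control against Parental, where every gene with at least 1 count gave 3. Single samples left out gave 14 to 20 targets in shAjuba1, 2 to 15 in shAjuba2, 10 to 13 in Ajuba OE, 9 to 15 between the knockdown lines, 11 to 14 in shScrambled against Parental and 0 to 3 in Control against Parental. SLIT2 in shAjuba1 turned to -0.0059 with Parental as control. Where shScrambled or Parental was left with 1 sample, that sample was assumed to vary like the other line. Over all genes, 1713 were called in shAjuba2 and 1147 in Ajuba OE as reported. The block called 5377 and 5140, all 16 samples 3672 and 2386, and the filter of 1 count 3210 in shAjuba2. All 16 samples called 1696 instead of 6526 genes in shScrambled against Parental. For Control against Parental 80 became 318 with the block, 469 with DESeq2, 530 with all 16 samples and 1947 with the filter of 1 count. Single samples left out gave 4711 to 9695 genes in shAjuba1, 182 to 4983 in shAjuba2, 412 to 988 in Ajuba OE, 2177 to 5961 between the knockdown lines, 3010 to 5369 in shScrambled and 14 to 985 in Control against Parental. Without replicate 2 of both lines, Ajuba OE had 14 targets called (1 higher, 13 lower) and 1701 genes. The cause of these moves was not tested. Of the named log2 fold changes, 18 of 255 lost their call with a sample left out, and 11 of 309 under the other alternatives. Of the 309, 1 more, SLIT2 in shAjuba1 against Parental, lost its call and turned its sign.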
